A study of Mus musculus with 16 samples.

Results

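The heat shock proteins and chaperonins are the protein-folding machines of the cell. Here 73 of their genes were described in mouse embryonic stem cells (ESCs) with RAM reduced by siRNA. The genes were chosen by name from the 46983 genes of the count table: symbols that begin with Hspa, Hspb, Hsp90, Hspd1, Hspe1, Hsph1, Dnaja, Dnajb, Dnajc or Cct and a digit, together with Tcp1. Of 95 such symbols, 12 pseudogenes were dropped and 10 genes were left out because they had a mean of under 10 counts over the 8 libraries of cytoplasmic RNA. The gene just inside that limit was Dnajb3, with a mean of 13.8 counts, and the gene just outside it was Hspa1a, one of the stress-inducible HSP70 genes, with 8.88 counts. By family, the 73 genes were 7 of HSP70, 3 of HSP110, 3 of HSP90, 5 small heat shock proteins, 2 proteins that bind HSPs, 4 of DNAJA, 11 of DNAJB, 27 of DNAJC, the mitochondrial chaperonin pair and 9 of the cytosolic chaperonin CCT. Statistical tests covered 70 of them, and Cct6b, Dnajb13 and Dnajb3 did not reach 1 CPM in 10 of the 16 libraries. Dnajb13 had 2.14 to 3.41 CPM in control input but 0.79 to 0.953 CPM in control polysomes, so the limit left out a gene that is low in polysomes. Hspa14 was not analysed here.

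The cells were 46C ESCs from strain 129Ola mice, a single line that carries GFP at the Sox1 locus, grown with LIF. They were transfected for 48 hr with RAM siRNA or a non-targetting control siRNA. By the paper, the 4 replicates received a single RAM siRNA. Whether another RAM siRNA gives the same changes in such libraries was not tested. RAM is the activating subunit of RNMT, the methyltransferase that completes the mRNA cap, and the comparison asked how transcripts and their ribosome association change when RAM is low. Each replicate was sequenced from cytoplasmic RNA (input) and from pooled polysome fractions, whose mRNA carries several ribosomes, so that 4 groups of 4 replicates made 16 libraries.

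Libraries held 16647523 to 20147833 counts. Ramac, the gene of RAM, had 197 to 206 counts in control input and 46 to 58 in RAM siRNA input (log2 fold change -1.84, standard error (SE) 0.11, adjusted p = 7.24e-06). Adjusted p-values are from the quasi-likelihood test of edgeR, adjusted by Benjamini-Hochberg over all genes tested. In polysomes it had 122 to 256 and 5 to 45 counts. The summed level of 8 pluripotency markers was 4624 to 4949 CPM (counts relative to library size, with TMM scaling) in control input and 3858 to 4454 in RAM siRNA input, and 3 of the 8 were lower (7 with libraries of the same replicate number paired), the largest change being Dppa5a at -0.36 (adjusted p = 0.00701). Endoderm markers summed to 4.11 to 5.29 CPM and 5.95 to 7.54 CPM, with Gata6 higher by 0.61 on the log2 scale. Fibroblast and mesoderm markers summed to 1.37 to 2.01 and 2.38 to 2.73 CPM, and Col3a1 had 0 to 1 counts. Neural markers summed to 71.6 to 83.6 and 77.7 to 91.9 CPM, but Pax6 had a log2 fold change of -0.50 (adjusted p = 0.0506, paired 2.87e-04) and Nes of 0.42 (adjusted p = 0.0531, paired 3.70e-06). The part of these shifts in the results below was not tested, and in bulk RNA fewer cells of a kind and less RNA per cell cannot be told apart. The polysome library of RAM siRNA replicate 2 differed from the other RAM siRNA libraries by a chi-square per gene of 133 to 334, where the others differed among themselves by 48.7 to 106. Control polysome libraries differed from each other by 24.3 (replicates 1 and 2) to 136 (replicates 2 and 4), without a clean split into pairs: replicates 3 and 4 differed by 51.4, but replicates 1 and 3 by 48.6. Values are nevertheless also given for replicates 1 and 2 and for replicates 3 and 4, which separates the RAM siRNA replicate 2 library from the last 2. In input, RAM siRNA replicate 4 differed from the other 3 by 26.8 to 34.7, and those by 6.05 to 9.61. Chaperone genes took 2.29% to 2.47% of the counts of control input, 2.14% to 2.34% in RAM siRNA input, 2.80% to 3.66% in control polysomes and 2.43% to 4.32% in RAM siRNA polysomes, where the highest share was that of replicate 2.

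HSP70 proteins hold unfolded chains in a cycle of ATP binding and hydrolysis. J-domain proteins (DNAJA, DNAJB and DNAJC) bring clients and start hydrolysis, HSP110 proteins release the nucleotide, HSP90 finishes kinases and receptors, small HSPs hold unfolded protein without ATP, and the chaperonins enclose a chain in a barrel. Heat shock factor 1 (HSF1) induces the cytosolic and mitochondrial genes through heat shock elements, and the unfolded protein response induces those of the endoplasmic reticulum (ER) through ER stress elements. Pluripotent cells are known for high levels of chaperones.

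The promoters of the genes that the results turn on were searched for these elements, and the matches are shown because both classes of gene are known to be induced through them. RefSeq promoters of GRCm38.p6, from 250 bases before to 50 bases after the annotated start, were at hand for 59 of the 73 genes. A heat shock element was taken as 3 triplets that alternate between GAA and TTC with 2 bases between them, on either strand. It was found in 198 of 32851 promoters, or 0.603%, and in those of 4 chaperone genes. Dnajb1, Hspa8, Hsp90aa1, Hsp90ab1, Hspb1 and Hspa1b, also inducible by HSF1, were not among these 4. Which of these others had a promoter at hand is not given here. Capitals mark the match, and where matches overlap the capitals span them.
Dnajb6, chr5:29735844-29735872, plus strand: agctccgaGAATCTTCCGGAAcgctagac
Hspd1, chr1:55088053-55088082, minus strand: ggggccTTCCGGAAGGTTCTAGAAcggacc
Hspe1, the same bases on the plus strand: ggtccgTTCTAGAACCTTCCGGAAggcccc
Hsph1, chr5:149636280-149636308, minus strand: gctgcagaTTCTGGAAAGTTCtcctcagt
The match of Dnajb6 ended 33 or 114 bases before its annotated starts, and that of Hsph1 lay after its start. Hspd1 and Hspe1, which encode the barrel and the lid of the mitochondrial chaperonin, are divergent neighbours that share 1 stretch between them, 126 bases before Hspd1 and 71 bases before Hspe1.

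The ER stress element was taken as CCAAT and CCACG with 9 bases between them, on either strand. It was found in 39 of the 32851 promoters, or 0.119%, and 3 of these belong to ER chaperones. Capitals again mark the match, read on the strand of the gene.
Hspa5, chr2:34772020-34772048, plus strand: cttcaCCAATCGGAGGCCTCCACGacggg
Hsp90b1, chr10:86705633-86705661, minus strand: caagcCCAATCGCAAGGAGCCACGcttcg
Hsp90b1, chr10:86705528-86705556, minus strand: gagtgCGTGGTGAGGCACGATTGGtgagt
Dnajc3, chr14:118937822-118937850, plus strand: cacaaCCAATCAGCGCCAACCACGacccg
The first Hsp90b1 match lay 193 and the other 88 bases before its start, in opposite orientations. A match says only that these letters stand there, and no factor binding was measured.

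Levels between genes were compared per length, in TPM (counts divided by transcript length and by their sum) of control input. Hsp90aa1, the inducible cytosolic HSP90, was the most abundant at 2378 ± 200 TPM (SD, n = 4), followed by Hsp90ab1, the constitutive one, at 2065 ± 143. Hspa8, the constitutive HSP70, had 1179 ± 78.7 TPM, Hspd1 1162 ± 34.9 and the mitochondrial HSP70 Hspa9 1153 ± 105, and these 3 neighbours differed by less than their SDs. The ER chaperones Hspa5 (BiP) and Hsp90b1 (GRP94) followed at 767 ± 64.6 and 710 ± 44.2 TPM, with overlapping SDs. The 8 tested CCT genes lay between 235 and 394 TPM, highest for Cct5, and the untested Cct6b had 0.82 TPM. The inducible HSP70 gene Hspa1b had 0.911 TPM, and the lowest gene was Dnajc28 with 0.765 ± 0.134. A word is any stretch of 75 bases in the transcript chosen for a gene. Hspa8 shared 68.6% of its words, on either strand, with other genes, mainly the pseudogene Gm15459. The share was 57.7% for Hspb1, 55.8% for Hspa1b (with Hspa1a) and 53.1% for Hsp90aa1, so these levels depend on how the counting treated such reads. The order also depends on the length used: by the union of all exons, Hspa8 had 856 TPM (rank 6), Hspd1 1389 and Hspa9 1063, and Cct3 and Cct7 had 122 and 116 TPM in place of 301 and 246.

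In input, 8 of the 70 tested genes were lower in RAM siRNA cells (11.4%) and 2 were higher (2.86%). Of all 12805 genes tested, 5.94% were lower and 6.95% were higher. The lower genes were Hspb6, Hsph1, Dnaja3, Dnajb6, Dnajc21, Dnajb1, Dnajc5 and Dnajc13, of which 6 encode J-domain proteins. The higher genes were Dnaja4 and Dnajc25. J-domain genes were also most of the 70 tested, with 4 of DNAJA, 9 of DNAJB and 27 of DNAJC. The median log2 fold change was -0.07 for the 70 genes and 0.00 for all genes, with 46 negative and 24 positive values. With the replicate number as a block (pairing the libraries that share a number), 17 were lower (24.3%) and 10 higher (14.3%), against 19.0% and 20.3% of all genes. Without any call, 8 genes had all RAM siRNA libraries below all control libraries and 3 had them above, against 8.62% and 9.39% of all genes. Without RAM siRNA replicate 4, 12 genes were lower and 3 higher by the test. Without control replicate 1, 2 or 4 or RAM siRNA replicate 1, 2 or 3, in that order, 3, 5, 4, 4, 3 and 3 were lower. In these latter fits Hspb6, Hsph1 and Dnaja3 were each time among the lower genes, and 0 or 1 was higher. Shares of all genes in the fits that left out a library are not given here. Their counts are therefore not read as a result about chaperone genes.

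**Figure D1:**
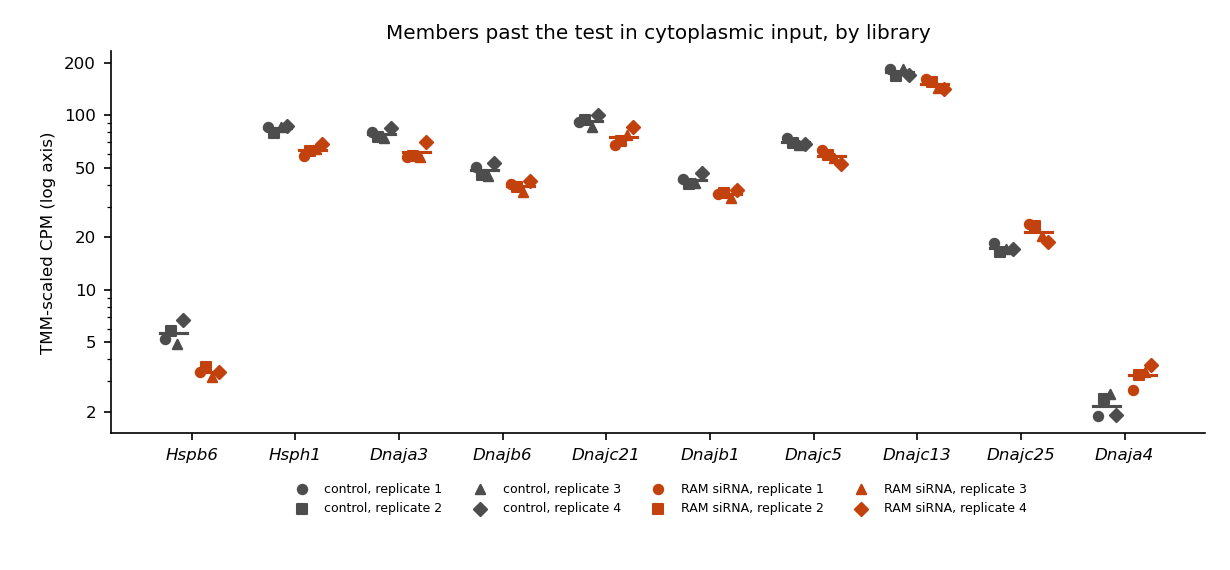
TMM-scaled CPM (log axis) of the 10 chaperone genes past the test in input, with 1 point per library, its shape giving the replicate, and a bar at the mean of the 4 libraries of control (grey) and RAM siRNA (orange). The groups overlap only for Dnajc21, where RAM siRNA replicate 4 (86.2 CPM) lies above control replicate 3 (85.3 CPM).

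Hsph1 (ENSMUSG00000029657, chr5:149614287-149636376 of GRCm38) encodes HSP105, an HSP110 protein that speeds nucleotide release from HSP70. Its level was 85.7, 79.4, 85.5 and 87.1 CPM in control input (replicates 1 to 4) and 58.3, 62.8, 63.8 and 68.8 CPM in RAM siRNA input. All 4 RAM siRNA libraries were below all control libraries. Its log2 fold change was -0.42 (SE 0.07, adjusted p = 0.00278, with the replicate block 7.92e-07). It stayed past the threshold with each of the 8 libraries left out in turn. The other HSP110 genes did not pass: Hspa4 had -0.14 (adjusted p = 0.38, with the replicate block 0.0116) and Hspa4l, a testis-enriched form, had -0.10.

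The small HSP with the largest change was Hspb6 (ENSMUSG00000036854, chr7:30552178-30555443), known as Hsp20 and best studied in muscle. It had 5.23, 5.82, 4.87 and 6.70 CPM in control input and 3.38, 3.6, 3.17 and 3.39 CPM in RAM siRNA input. The groups did not overlap, and the log2 fold change was -0.74 (SE 0.14, adjusted p = 0.00491, with the replicate block 9.20e-05). It was past the threshold whichever library was left out. Hspb1 (Hsp25), with 265 to 324 CPM in control input, had -0.17 (adjusted p = 0.286, with the replicate block 0.00361). Hspb2, Hspb8 and Hspb11 did not pass in either fit.

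Dnaja3 (ENSMUSG00000004069, chr16:4639989-4707695) encodes Tid1, the J-domain partner of Hspa9 in mitochondria. Control input had 79.9, 75.1, 73.9 and 84.1 CPM and RAM siRNA input 57.8, 58.5, 58.0 and 70.7 CPM. All RAM siRNA libraries lay below the controls, with replicate 4 apart from the other 3. The log2 fold change was -0.36 (SE 0.08, adjusted p = 0.013, with the block 4.39e-06), and it held with each library left out. Hspa9 itself had -0.16 (adjusted p = 0.316, with the block 0.00514). Of the mitochondrial chaperonin, Hspd1 had 0.05 (adjusted p = 0.726, with the block 0.402), whereas its lid Hspe1 had -0.22 (adjusted p = 0.0627, with the block 2.86e-04). For Hspe1, input levels were 296, 290, 276 and 306 CPM in control and 248, 247, 238 and 273 CPM in RAM siRNA cells, with no overlap. The shared promoter stretch shown above lies between genes with log2 fold changes of -0.22 and 0.05, each with an SE of 0.07. That difference between them was not tested.

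Dnajb1 (Hsp40, ENSMUSG00000005483, chr8:83608193-83612653) is the main J-domain partner of cytosolic HSP70 and a classical HSF1 target. Its levels were 43.2, 40.6, 40.7 and 46.8 CPM in control input and 35.3, 35.8, 33.6 and 37.2 CPM in RAM siRNA input. Dnajb6 (ENSMUSG00000029131, chr5:29735688-29818134), which keeps aggregation-prone proteins from forming fibrils, had 50.5, 45.5, 45.2 and 53.2 CPM in control input. In RAM siRNA input it had 40.5, 38.8, 36.5 and 41.9 CPM. Neither gene's groups overlapped. The log2 fold changes were -0.27 (SE 0.07, adjusted p = 0.0267) and -0.30 (SE 0.08, adjusted p = 0.022), and each passed in 3 of the 8 fits that left out a library. With the block, adjusted p was 3.07e-04 for Dnajb1 and 5.67e-05 for Dnajb6. Dnajb6 shared 39.2% of its words of 75 bases with other genes, mainly Gm6395, and Dnajb1, Hsph1, Dnaja3 and Hspb6 shared 0%.

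Among the DNAJC genes, Dnajc21 (ENSMUSG00000044224, chr15:10446756-10470516), which serves in the maturation of the large ribosomal subunit, had -0.30 (SE 0.08, adjusted p = 0.0368). Control input had 91.6, 93.8, 85.3 and 101 CPM and RAM siRNA input 67.3, 71.3, 77.5 and 86.2 CPM. These groups overlapped in 1 pair of libraries. Dnajc5 (cysteine string protein, on secretory vesicles) had 73.9, 69.6, 68.0 and 68.1 CPM in control and 63.3, 59.4, 57.2 and 52.8 CPM in RAM siRNA input, without overlap (-0.27, SE 0.07, adjusted p = 0.03). Dnajc13 (RME-8, on endosomes), named here after its values were seen, had 185, 169, 185 and 171 CPM against 162, 155, 143 and 141 CPM, again without overlap. Its log2 fold change was -0.24 (SE 0.07, adjusted p = 0.0495), and it passed in 0 of the 8 fits that left out a library. Dnajc5 passed in 4 and Dnajc21 in 2 of them. With the block, adjusted p was 7.91e-05 for Dnajc21, 1.05e-04 for Dnajc5 and 2.83e-04 for Dnajc13. Dnajc2, which works at the ribosome with HSP70, had -0.05.

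The genes that rose both encode J-domain proteins, as do most of the tested genes. Dnajc25 (ENSMUSG00000070972, chr4:58995062-59025573), a membrane protein, had 18.5, 16.5, 17.1 and 17.2 CPM in control and 23.9, 23.1, 20.3 and 18.8 CPM in RAM siRNA input. Its log2 fold change was 0.31 (SE 0.09, adjusted p = 0.0481), and it passed in 1 of 8 fits that left out a library. Dnaja4 (ENSMUSG00000032285, chr9:54698873-54716315) had 1.90, 2.36, 2.52 and 1.91 CPM in control and 2.68, 3.25, 3.38 and 3.73 CPM in RAM siRNA input. Every RAM siRNA library was above every control library for both genes. Dnaja4 had a log2 fold change of 0.58 (SE 0.17, adjusted p = 0.0421) and passed in 2 of the 8 fits. With the block, adjusted p was 0.00178 for Dnajc25 and 0.00643 for Dnaja4. Of the exon bases of Dnaja4, 44.1% overlap Wdr61 on the opposite strand, and whether strand was used in the counting is not given in the sources used here, so the reads of these genes may not be told apart.

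The cytosolic HSP70 and HSP90 genes with the highest levels did not pass in input in either fit. Hspa8 had 1584, 1526, 1575 and 1727 CPM in control and 1457, 1424, 1401 and 1819 CPM in RAM siRNA input, so that the highest library of all was a RAM siRNA library (-0.07, adjusted p = 0.664, with the block 0.179). Hsp90aa1 had 4467, 4168, 4241 and 4846 CPM against 4253, 3948, 4124 and 4423 CPM (-0.08, adjusted p = 0.58, with the block 0.159). Hsp90ab1 had -0.08 (adjusted p = 0.552, with the block 0.134). The inducible Hspa1b, which is among the lowest, had 0.08 with an SE of 0.27.

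All 8 tested CCT genes had negative values, from -0.19 (Cct7) to -0.03 (Cct2), with a median of -0.07 and SEs of 0.10 to 0.12. In the edgeR test of all 8 libraries without the block none passed, and 0 had an unadjusted p under 0.05. Cct7 passed with the block (-0.20, adjusted p = 0.00138), with limma-voom (-0.26, adjusted p = 0.0162) and in edgeR without RAM siRNA replicate 4 (-0.31, adjusted p = 0.018). For Cct5, control input had 413, 404, 366 and 476 CPM and RAM siRNA input 366, 375, 348 and 511 CPM, and the groups overlapped. The sign did not hold for Cct2, Cct3, Cct5 and Cct8, which reached 0.00 to 0.03 when 1 library was left out.

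Of the 13 genes whose proteins work in the ER, 1 was higher (Dnajc25) and 0 were lower, and their median was 0.10, where 6.95% and 5.94% of all genes were higher and lower. With the block, 6 were higher and 1 lower, against 20.3% and 19.0% of all genes. Hspa5 had 1607, 1593, 1788 and 1418 CPM in control and 1940, 1833, 1857 and 1432 CPM in RAM siRNA input, where replicate 4 was lowest in both groups and the groups overlapped. Its log2 fold change was 0.14 (adjusted p = 0.456, with the block 0.0341). Hsp90b1, whose promoter also holds the ER stress element, had the opposite sign at -0.12 (adjusted p = 0.502, with the block 0.035). With the block, the other higher ER genes were Dnajb14, Dnajc1, Dnajc16 and Dnajc18, all membrane J-domain proteins. Dnajc28 (0.53, adjusted p = 0.0797, with the block 0.0292), Hspbap1 and the HSP70 relative Hspa12a (0.25) were also higher with the block. Dnajc28 passed as well with limma-voom (adjusted p = 0.035) and without RAM siRNA replicate 4 (adjusted p = 0.046). Dnajc8, a splicing-associated J-domain protein, Dnajc11 of the mitochondrial membrane and the HSP70 partner Dnaja1 were lower with the block and did not pass without it.

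**Figure D2:**
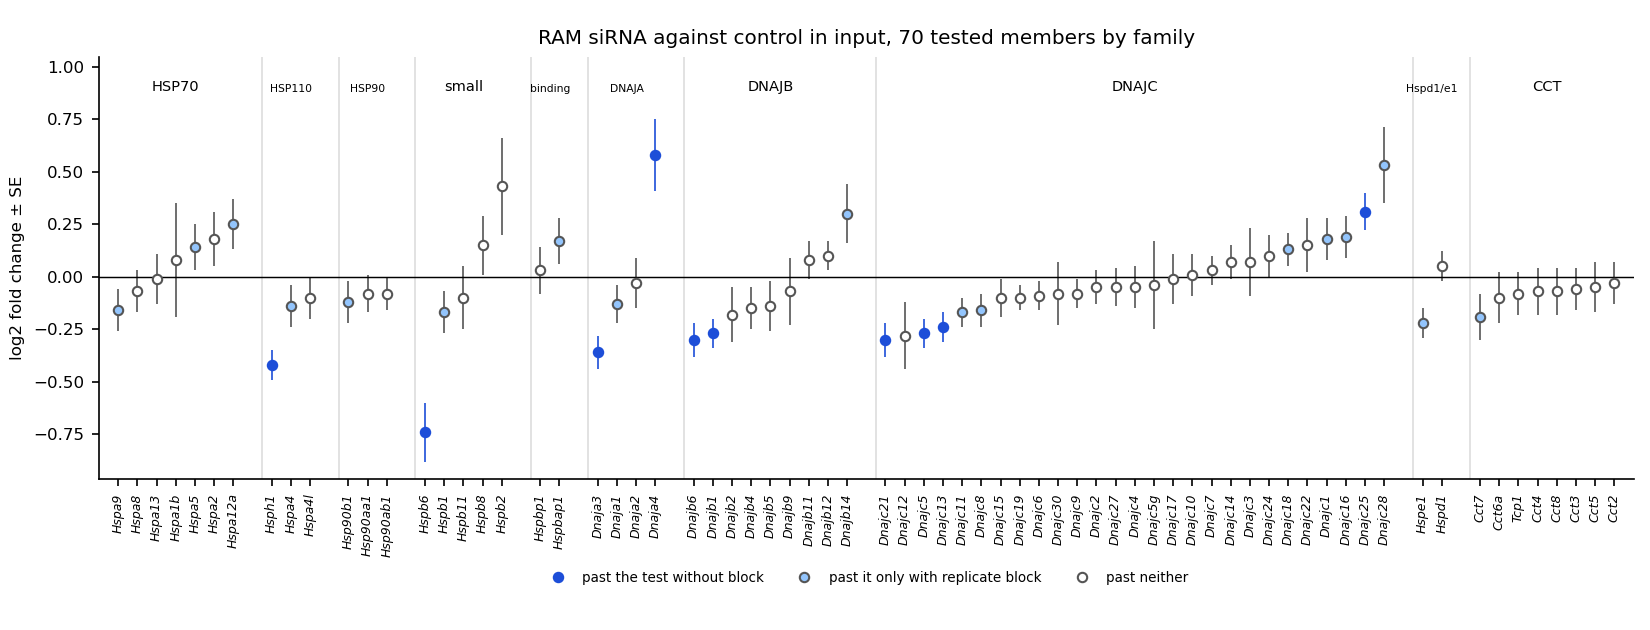
Log2 fold change of RAM siRNA against control in input for the 70 tested genes, grouped by family along the horizontal axis, with bars of 1 SE from the fit without the block. Filled points passed without the block, pale points only with it, and open points in neither fit. The CCT genes lie between -0.19 and -0.03, and the J-domain genes spread from -0.36 (Dnaja3) to 0.58 (Dnaja4).

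Short words in the 3′ UTR moved with the calls in input over all genes. These words were chosen with earlier results known. Of the 628 genes tested that hold ACTATCA in a 3′ UTR, 21.7% were lower and 2.9% higher, against 5.4% and 7.3% of the 11354 without it. Among chaperone genes 3 held it, Hsph1, Dnajc5 and Hspa4l, and the first 2 of these were lower. The shorter word ACTATC was in 9, of which 2 were lower and 1 higher. Of the 60 chaperone genes without it 6 were lower (10.0%) and 1 higher (1.7%). Over all genes, 16.1% of the 1647 with ACTATC were lower and 4.2% higher, against 4.7% and 7.6% of the 10335 without it. The chaperone genes with the word are too few to bear out a contrast, and 3′ UTR length was not taken into account. Hspb6, Dnaja3, Dnajb6, Dnajc21, Dnajb1 and Dnajc13 held neither word. The word TGCTCA was in 20 chaperone genes, among them both higher genes, Dnaja4 and Dnajc25, and 2 lower ones, Hsph1 and Dnajb1. Over all genes 9.2% of those with it were higher and 5.8% lower, against 6.0% and 6.4% of those without. What part these words have in the chaperone values was not tested.

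In polysomes, 0 of the 70 genes passed in either direction without the block (0.0234% of all genes were lower and 0% higher). Ramac itself did not pass in polysomes without the block, at a log2 fold change of -2.52, and was lower with it, at -2.59. An absence of calls without the block therefore does not show unchanged levels. At an unadjusted p under 0.05 without the block there were 5 chaperone genes and 1152 of all genes. DESeq2 called 2 chaperone genes lower, and the share of all genes in that fit is not given here. With the replicate block 5 were lower and 3 higher, against 4.97% and 9.68% of all genes. The lower genes were Dnajb6, Dnajb1, Hsph1, Dnajb2 and Dnaja3, and 4 of these were also lower in input. The higher genes were Dnajc25, Dnaja4 and Dnajc16. Each of these values comes from the fit with the block, and the median over the 70 genes was -0.04 there (0.03 for all genes).

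Dnajb6 had 83.6, 70.2, 76.9 and 82.2 CPM in control polysomes and 52.1, 45.1, 48.5 and 55.9 CPM in RAM siRNA polysomes. No RAM siRNA library reached a control library. The log2 fold change with the block was -0.59 (SE 0.10, adjusted p = 0.00168, without the block 0.193). It was -0.63 in replicates 1 and 2 alone and -0.56 in replicates 3 and 4 alone. Dnajb1 had 70.3, 66.3, 77.4 and 89.9 CPM in control and 50.2, 39.1, 56.8 and 66.7 CPM in RAM siRNA polysomes, and RAM siRNA replicate 4 just exceeded control replicate 2. With the block it had -0.48 (SE 0.11, adjusted p = 0.00888, without it 0.553), and the pairs of replicates gave -0.58 and -0.39.

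Dnaja3 had 136, 132, 115 and 130 CPM in control and 97.5, 89.0, 87.7 and 102 CPM in RAM siRNA polysomes, with no overlap. Its value with the block was -0.40 (SE 0.11, adjusted p = 0.021, without it 0.384), or -0.49 and -0.32 in the pairs of replicates. Dnajb2, a neuronal J-domain protein with 5.40 to 8.81 CPM in control and 3.78 to 6.52 CPM in RAM siRNA polysomes, had -0.44 (SE 0.14, adjusted p = 0.042) and was named after its values were seen. Dnajc25 had 28.8, 24.1, 32.4 and 25.4 CPM in control and 41.5, 30.5, 46.7 and 33.3 CPM in RAM siRNA polysomes, higher in each of the 4 replicates (0.50, SE 0.11, adjusted p = 0.00623, or 0.48 and 0.53 in the pairs of replicates). Dnaja4 had 0.53 (SE 0.16, adjusted p = 0.0402) and the ER protein Dnajc16 had 0.41 (SE 0.12, adjusted p = 0.026). These last 2 values were 0.41 and 0.64 for Dnaja4, and 0.60 and 0.22 for Dnajc16, in replicates 1 and 2 and in replicates 3 and 4.

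For Hsph1 the replicates differed. It had 83.9, 94.0, 56.6 and 71.6 CPM in control and 52.5, 104, 31.8 and 46.2 CPM in RAM siRNA polysomes, so that replicate 2 was higher in RAM siRNA cells (log2 ratio 0.15) while the other 3 had ratios of -0.68, -0.83 and -0.63. With the block the log2 fold change was -0.45 (SE 0.14, adjusted p = 0.0423), and it was -0.15 in replicates 1 and 2 alone and -0.67 in replicates 3 and 4 alone. Without the block it was -0.35 (adjusted p = 0.909) with all libraries and -0.76 (adjusted p = 0.171) without RAM siRNA replicate 2. The same library was the highest of all polysome libraries for several abundant chaperones, among them Hsp90aa1 (9571 CPM, against 4215 to 5433 in the other RAM siRNA polysomes) and Hspa5 (5247 CPM, against 1454 to 3177). The other replicates of Hspa5 had log2 ratios of 0.07, -0.16 and -0.14.

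**Figure D3:**
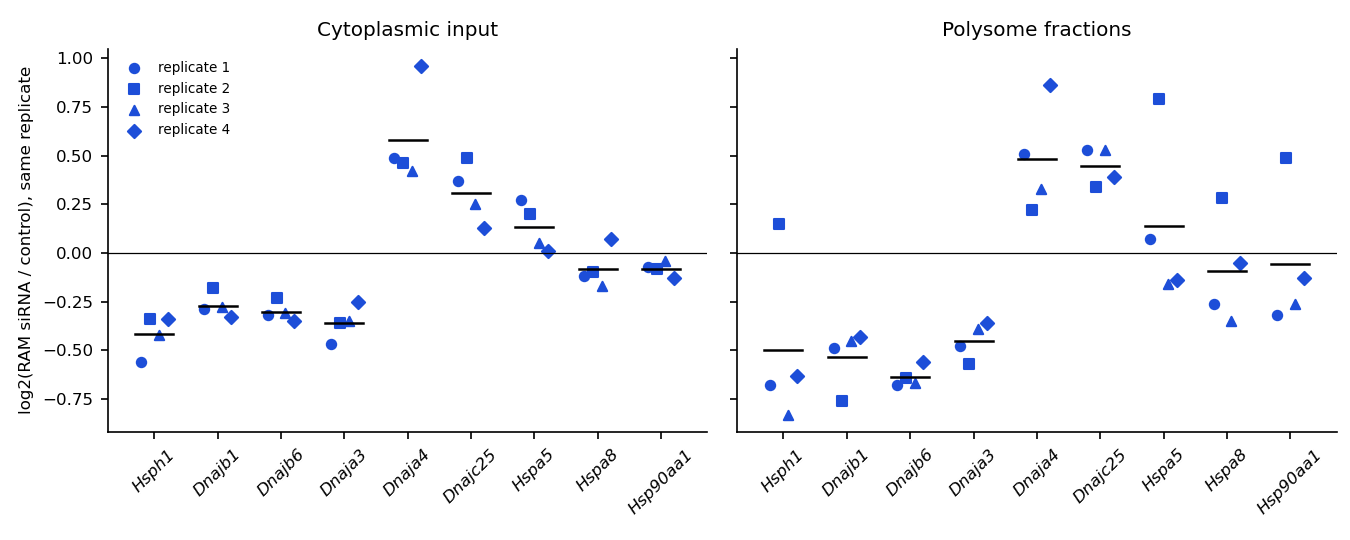
Log2 ratio of RAM siRNA to control CPM between libraries of the same replicate number, in input (left) and polysomes (right), for 9 chaperone genes, with a bar at the mean of the 4 ratios. Dnajb1, Dnajb6 and Dnaja3 are below 0 in every replicate of both fractions and Dnaja4 and Dnajc25 above it, whereas replicate 2 lies apart in polysomes for Hsph1, Hspa5, Hspa8 and Hsp90aa1.

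A change of polysome loading, the polysome level relative to input, was tested as the interaction of fraction and siRNA over all 16 libraries. Counts were scaled within each fit, so this tested the loading of a gene relative to other genes. A fall in loading shared by all transcripts would not appear in it. The paper reports a lower ratio of polysomes to monosomes after RAM siRNA. No chaperone gene passed in edgeR, with or without a replicate block. Of all genes, 0 passed (0%) without a block or with the replicate block, and 2 were lower (0.0156%) under a block within each fraction. The count of all genes under a block for each culture is not given here. The paper reports a small number of genes with RAM-dependent polysome loading, and the difference from these counts was not tested. Unadjusted p was under 0.05 for 1 chaperone gene without a block, which was Dnajb6 at -0.33 (SE 0.15, unadjusted p = 0.0458). With the block within each fraction 2 genes were under it, Dnajb6 (unadjusted p = 0.00353, adjusted p = 0.628) and Dnajb1 at -0.26 (unadjusted p = 0.0285, adjusted p = 0.955).

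Polysome loading in control cells, the control polysome libraries against control input, asks which transcripts sit on many ribosomes before any knockdown. Of the 70 genes, 38 were higher in polysomes (54.3%) and 9 were lower, against 33.1% and 34.3% of all genes tested. Their median log2 ratio was 0.46, and that of all genes was 0.00. In 36 genes every polysome library was above every input library and in 8 every one was below, against 30.7% and 30.4% of all genes.

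All 8 CCT genes were higher, by 0.81 to 1.09 on the log2 scale. Cct5, for example, went from 413, 404, 366 and 476 CPM in input to 1018, 906, 785 and 910 CPM in polysomes. All 4 DNAJA genes were also higher. The largest ratio was that of Hspb1, with 293, 302, 265 and 324 CPM in input and 844, 771, 872 and 1013 CPM in polysomes (1.53, SE 0.13, adjusted p = 2.91e-06). It was followed by Dnajb11, an ER J-domain protein (1.41, SE 0.12), Hspbp1, a nucleotide exchange factor of HSP70 (1.25, SE 0.15), and the splicing-associated Dnajc17 (1.17, SE 0.13). Hspa8 (0.46), Hspa5 (0.59), Hspa9 (0.60), Hspd1 (0.67) and Hsp90aa1 (0.39) were higher by less, and their ratios were smaller in replicates 3 and 4 alone, at 0.30, 0.28, 0.31, 0.28 and 0.16, where none of the 5 passed (adjusted p from 0.299 to 0.612). Hsp90aa1 also did not pass in 5 of the 8 fits that left out a library, nor Hspa5 in 2. Hsp90ab1 (0.07), Hsp90b1 (0.22) and the 3 HSP110 genes did not pass with all replicates. In replicates 1 and 2 alone Hsp90ab1 (0.31, adjusted p = 0.0195), Hsp90b1 (0.55, adjusted p = 0.00543) and Hspa4 (0.42, adjusted p = 0.00501) were higher, and in replicates 3 and 4 alone they had -0.20, -0.21 and -0.15.

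The lower genes were led by Hspb6, which had 5.23, 5.82, 4.87 and 6.70 CPM in input and 1.19, 0.741, 0.508 and 1.14 CPM in polysomes (-2.69, SE 0.24, adjusted p = 3.61e-06). Dnajc27, which joins a Rab-like GTPase to a J domain, had 42.1, 41.0, 50.3 and 48.7 CPM in input and 10.5, 8.85, 8.40 and 10.1 CPM in polysomes (-2.30, SE 0.13, adjusted p = 1.35e-07). Dnajc5g (-1.66), Dnajc5 (-1.61) and Dnajc19 of the mitochondrial import motor (-1.47) followed, and the other 4 were Hspa12a, Dnajb4, Dnajc28 and Dnajc18. The chaperonin pair had ratios of opposite sign: Hspd1 was higher (0.67, SE 0.20, adjusted p = 0.0109), and Hspe1 had -0.46 (adjusted p = 0.0536, with the block -0.51 and 0.0224). Dnajc3, an ER J-domain protein, passed as higher with the block (adjusted p = 0.033).

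Loading moved with the length of the coding sequence. Of all genes with a coding length of at most 600 bases, 45.6% were lower and 17.6% higher, with a median of -0.37. Of the 11 chaperone genes of that length, 4 were lower, among them Hspb6 and Dnajc5, and 3 higher. Above 600 and up to 1200 bases, 22.4% of all genes were lower and 49.9% higher, and 3 and 13 of 22 chaperone genes, with medians of 0.42 and 0.60. Above 1200 and up to 2400 bases, which holds 7 of the tested CCT genes and most HSP70 genes, 28.1% of all genes were lower and 39.4% higher, and 2 and 21 of 30 chaperone genes, with medians of 0.15 and 0.55. Of all genes with longer coding sequences, 48.4% were lower and 12.7% higher, with a median of -0.42, and none of the 6 chaperone genes there, which include the 3 HSP110 genes and Hsp90b1, passed. The part of coding length in the chaperone ratios was not tested.

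**Figure D4:**
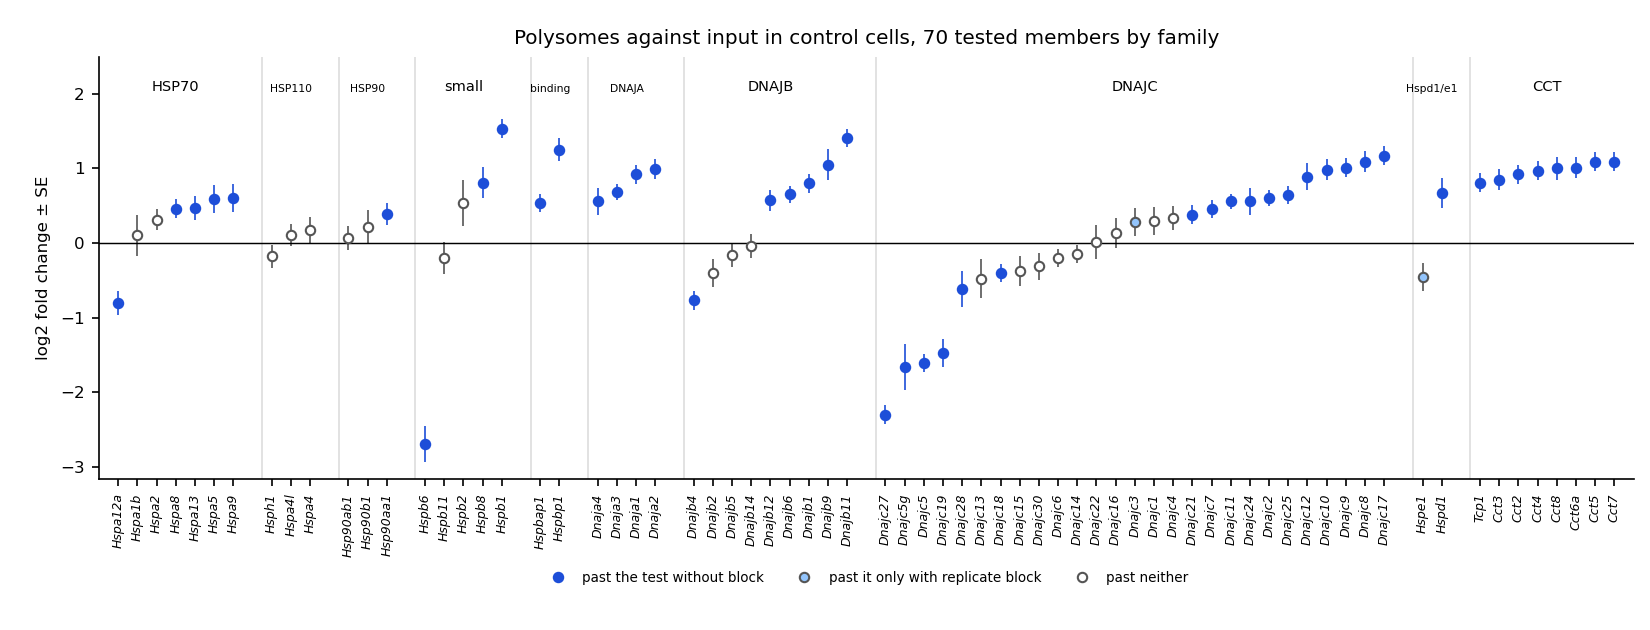
Log2 ratio of polysomes to input in control cells for the 70 tested genes by family, with bars of 1 SE from the fit without the block. Filled points passed without the block, pale points only with it, and open points in neither. The CCT genes lie together between 0.81 and 1.09, and the range over the DNAJC genes is -2.30 to 1.17.

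Replicates of a group differed in a way that was shared by gene families, a pattern chosen after the values were seen and given as a description. All 8 tested CCT genes were highest in replicate 4 in both control and RAM siRNA input, as were 33 of the 70 chaperone genes and 23.4% of all genes. Replicate 4 exceeded the mean of the other 3 by a median of 0.27 on the log2 scale for the CCT genes in control input and 0.41 in RAM siRNA input, where all genes had 0.01. The ER chaperones had the opposite order: 12 of 13, all but Dnajc25, were lowest in replicate 4 in both groups, as were 21.1% of all genes. Their medians were -0.24 and -0.32. Of 16 other ER folding genes, 12 were also lowest in replicate 4 in both groups, and 6 of 9 prefoldin and CCT helper genes were highest there. In polysomes, 11 of 13 ER chaperones were lowest in replicate 4 in both groups, as were 2741 of all 12805 genes tested. There 0 of the 8 CCT genes were highest in replicate 4 in both groups, as were 8 of 9 prefoldin and CCT helper genes and 3500 of all genes.

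**Figure D5:**
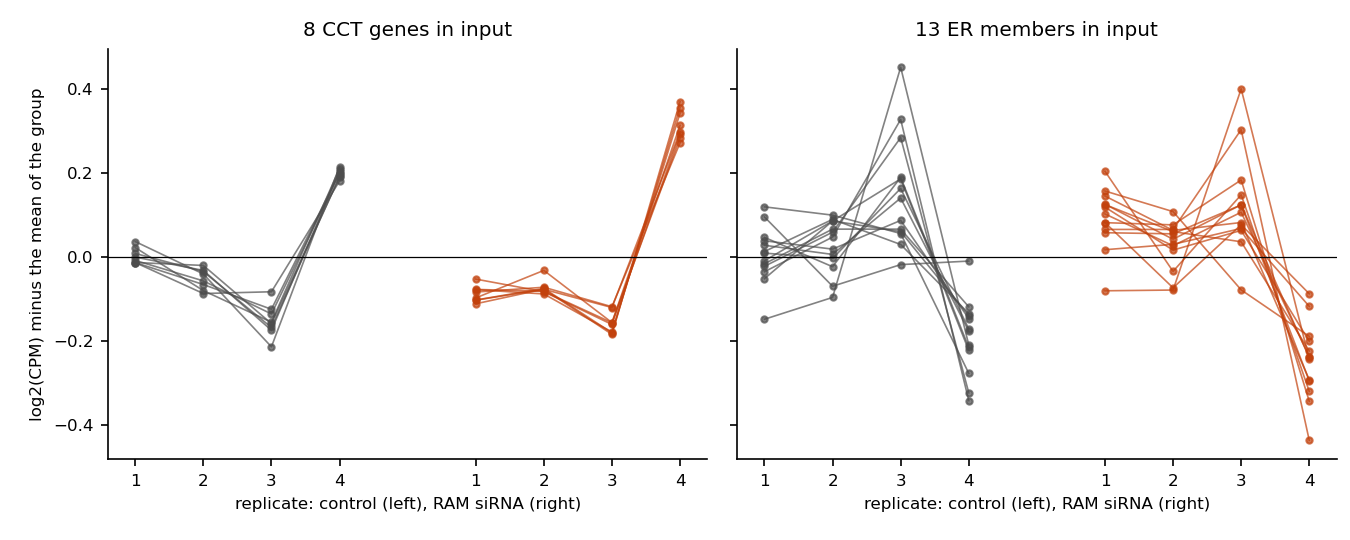
Log2 CPM minus the mean of the group in input for each of the 8 CCT genes (left) and the 13 ER chaperones (right), with lines joining the 4 libraries of a gene in control (grey) and RAM siRNA (orange). Every CCT line is highest at replicate 4, and 12 of the 13 ER lines are lowest there in both groups.

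Genes that work with the chaperones were followed in input from lists of known partners, to be read against the 5.94% lower and 6.95% higher of all genes, or 19.0% and 20.3% with the block. Of the 10 mitochondrial chaperone genes, 1 was lower (Dnaja3), and with the block 4 were lower and 1 higher. Of the 11 chaperone genes inducible by HSF1, 2 were lower (Hsph1 and Dnajb1), 5 with the block, and their median was -0.10. Hsf1 had -0.05 and Hsf2 0.03. Of 25 cochaperones and heat shock factors, 3 were lower, led by the HSP90 partner Sugt1 (-0.40, adjusted p = 0.0174), and 0 were higher (7 lower and 3 higher with the block). None of 9 prefoldin and CCT helper genes passed without the block and 1 was lower with it. Of 16 other ER folding genes, Xbp1, a transcription factor of the unfolded protein response, was lower (-0.33, adjusted p = 0.0364) and Creld2 was higher (0.25, adjusted p = 0.0492), and with the block 2 were lower and 4 higher. Of 10 mitochondrial partners, Trap1, the mitochondrial HSP90, was higher (0.27, adjusted p = 0.0467).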

How the data were processed

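The authors mapped the reads to GRCm38 (mm10 in the submitters' notes) with STAR 2.5.1b and used HTSeq to count them per Ensembl gene. They deposited raw counts, not normalized. The settings of HTSeq and the annotation release are not given in the sources used here. From these counts, CPM was computed with TMM scaling, and the 12805 genes reaching 1 CPM in 10 or more of the 16 libraries were tested with edgeR 4.0.16 (glmQLFit and glmQLFTest, R 4.3.3). p-values were adjusted by Benjamini-Hochberg over these genes, with a threshold of 0.05. Input and polysome comparisons used the 8 libraries of the fraction, control loading the 8 control libraries and the change of loading all 16. Without the block, p-values rest on the spread between the 4 replicates of a group. With the block they rest on the spread that remains once differences between replicate numbers are taken out.

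Libraries with the same replicate number in the labels deviated together from their group means. The correlation r was 0.289 to 0.590 in input, 0.513 to 0.871 in polysomes and 0.228 to 0.455 between the control fractions. Pairing by number was less clear in polysomes. Control replicate 1 had r = 0.543 with RAM siRNA replicate 2, above its 0.513 with RAM siRNA replicate 1. Control replicate 4 had r = 0.369 with RAM siRNA replicate 3. The value of a fit with the replicate number as a block is given where it changes a call, and for the genes called in input. The fits that left out a library had no block. Without the block, differences between replicate numbers stay in the error of the test. Over all genes in input, 761 were lower and 890 higher without the block, and 2433 and 2595 with it. The counts with the block are nearer to those that the paper reports. Pairs of libraries of a group had a chi-square per gene of 5.09 to 334, so none was a copy.

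Symbols, lengths, coding lengths and 3′ UTRs came from GENCODE M21 (46488 of 46983 genes matched) and promoters from RefSeq. Promoter distances are between the match and the annotated start. Shared sequence was measured as words of 75 bases.

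The genes, lists, 3′ UTR words and tests were chosen with earlier results of these data known. Named genes were the chaperones listed by role (Hspa8, Hsp90aa1, Hsp90ab1, Hspa1a, Hspa1b, Hsph1, Dnajb1, Hspb1, Hspa4, Hspa4l, Hspa5, Hsp90b1, Hspa9, Hspd1, Hspe1, Hspa14, Dnajc2 and the CCT genes), the 5 largest falls and rises past the threshold in each comparison, with 3 each way where the block adds calls, the 5 highest levels and the lowest, and from each partner list the largest change each way. The list of other HSF1-inducible genes is not reported here. Other names were added after their values were seen, to complete a count or a family.

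Alternatives were RLE scaling, no filter, filterByExpr, DESeq2 1.42.0, limma-voom with sample weights (limma 3.58.1), the replicate block, all 16 libraries in one fit, replicates 1 and 2 or 3 and 4 alone, and each library left out. The fits were tested on simulated data with planted changes larger than those called in input here. The same spread was simulated for every comparison, so this does not cover the wider spread of the polysome libraries. The outcome is not given here.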

Additional observations from a re-analysis of the deposited data

Results flagged for a closer look

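The levels of 40 chaperone genes were examined for a library far from the other 3 of its group, in 160 groups of 4 libraries. In 9 of them the highest library lay so far from the next that the gap passed Dixon's limit for 4 values, where chance gives about 1 in 20 groups. In each of the 9 the library was RAM siRNA replicate 4. In input, Cct2 had 437 CPM there, against 327 to 337 CPM in the other 3. Cct4 had 392 CPM, against 283 to 299, and Cct5 had 511 CPM, against 348 to 375. Cct6a had 496 CPM and the others 342 to 368, Cct7 had 376 CPM and the others 262 to 281, and Tcp1 had 481 CPM and the others 367 to 379. Hspa8 had 1819 CPM, against 1401 to 1457, and Dnaja3 had 70.7 CPM, against 57.8 to 58.5. In polysomes, Hspbp1 had 73.6 CPM, against 46.5 to 50.8 CPM in the other RAM siRNA libraries.

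Without RAM siRNA replicate 4, 12 chaperone genes were lower in input and 3 higher, against 8 and 2 with it. The share of all genes without that library is not given here.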

How the results depend on the processing

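In input the test called 8 chaperone genes lower and 2 higher, and these counts were 14 and 6 with limma-voom, 17 and 10 with the replicate block, and 0 and 0 with all 16 libraries in one fit. Without a filter and with filterByExpr 1 was higher. With each library left out in turn, 3 to 12 were lower and 0 to 3 higher. In polysomes the counts were 0 and 0, and 2 lower with DESeq2, 3 lower and 1 higher with limma-voom, 5 lower and 3 higher with the replicate block, 2 lower with all 16 libraries in one fit, and 0 to 0 with each library left out. Loading in control cells had 9 lower genes, 14 with limma-voom and 15 in replicates 1 and 2 alone, and 8 to 12 with each library left out, and 38 higher genes, 35 to 40 with each library left out. The change of loading had 0 in every fit. Shares of all genes are given with the results for the main fits and the replicate blocks only. The counts of the other fits are therefore not read as a result about chaperone genes. The sign of some ratios not past the threshold turned: in control loading, replicates 3 and 4 alone gave -0.20 for Hsp90ab1, -0.15 for Hspa4, -0.03 for Hspa4l and -0.21 for Hsp90b1, and replicates 1 and 2 alone gave 0.05 for Hsph1. With each library left out in turn, the range was -0.02 to 0.19 for Hsp90ab1 and -0.04 to 0.34 for Hspa1b in control loading, and in input -0.07 to 0.32 for Hspa1b, -0.14 to 0.03 for Cct2, -0.16 to 0.00 for Cct3, -0.19 to 0.02 for Cct5 and -0.18 to 0.00 for Cct8. Dnaja4 and Dnajc25 were no longer past the threshold in input without a filter (adjusted p = 0.0716 and 0.0911) or with filterByExpr (0.0517 and 0.0624). Replicates 1 and 2 alone called Hsp90ab1, Hspa4 and Hsp90b1 higher in control loading (0.31, 0.42 and 0.55), and limma-voom called Hspa4 and Hsp90b1 (adjusted p = 0.0324 and 0.0155). The block changed no other call of a chaperone gene than those given with the results. The causes were not tested. Depth was not varied, and the SE in input was 0.27 for Hspa1b and 0.17 for Dnaja4, both at a few CPM.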
